A study of Mus musculus with 6 samples.

Results

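The 31 genes described here encode mitochondrial fatty acid oxidation and the steps that feed it. The list was set by gene name, with earlier results of these data known. Values came from whole colon of 6 C57BL/6 mice, and 29 of the 31 genes could be followed among the 18194 genes named on the arrays. The 3 deficient mice were PPAR g fl/fl with Lysozyme M cre+, in which Cre from the lysozyme M promoter deletes floxed Pparg mainly in macrophages and neutrophils. The 3 control mice were PPAR g fl/fl littermates with Lysozyme M cre-. All 6 mice, taken at 6 to 8 weeks of age, had received 2.5% dextran sodium sulfate (DSS), which damages the colonic epithelium, and were killed on day 7. Each array was hybridised with RNA of 1 mouse. No untreated mice were used, so every value is that of a DSS-treated bowel, and floxed Pparg is common to both groups. Cre is present only in the deficient mice, so its presence and the loss of PPAR gamma cannot be told apart.

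Long-chain fatty acids are burned in mitochondria in a fixed order. An acyl-CoA synthetase activates the acid, the carnitine shuttle carries it across the inner membrane, and a cycle of dehydrogenation, hydration, second dehydrogenation and thiolysis shortens the chain. Electrons leave the first step through the electron transfer flavoprotein. In the colon, epithelial cells draw much of their energy from fatty acid oxidation. A main substrate is the short-chain acid butyrate, which does not need the carnitine shuttle. PPAR alpha and its coactivator PGC-1 alpha drive many of these genes, and PPAR gamma drives genes of lipid uptake and storage in fat and in macrophages.

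The promoters of these genes are printed first because the nuclear receptors named above bind a short core of letters, AGGTCA. The PPAR-type element is a direct repeat of the core with 1 base between its copies, AGGTCANAGGTCA, and the estrogen-related receptor type is TCAAGGTCA. RefSeq windows (GRCm38.p6, 250 bases before to 50 after each start) were found for 26 of the 31 genes, as 28 windows. With up to 2 mismatches on either strand, the direct repeat was found in the windows of Echs1, Etfa, Slc25a20 and Pcca, or 4 of 28, against 3.86% of all 32851 windows. The exact core, which can lie inside a repeat, was in 6 of 28 member windows, against 16.3% of all windows. Those windows belonged to 5 member genes, Acadm, Acadvl, Cpt1a, Echs1 and Pcca. No member window held the repeat with 1 mismatch or none (0.554% and 0.0396% of all windows), or TCAAGGTCA (0.423%). These matches are descriptions of letters and not binding sites.

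Below are the 250 bases before the start of 5 genes, on the strand of the gene, 5′ to 3′. Acadm and Acot2 are shown as genes with small p in the comparison, Etfa and Echs1 for their matches to the repeat, and Hadhb because it shares its window with Hadha. Capitals mark the exact core in Acadm, on the opposite strand at bases -249 to -244, and the match with 2 mismatches in Etfa (opposite strand, -77 to -65) and in Echs1 (-83 to -71). Acot2 and Hadhb hold neither, and are in lower case throughout.
Acadm (chr3:153944644-153944893, minus strand): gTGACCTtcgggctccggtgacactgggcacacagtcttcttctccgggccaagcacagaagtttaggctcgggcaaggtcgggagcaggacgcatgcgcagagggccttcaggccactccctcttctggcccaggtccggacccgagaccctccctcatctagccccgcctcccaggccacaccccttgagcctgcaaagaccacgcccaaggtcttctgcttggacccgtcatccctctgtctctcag
Etfa (chr9:55512244-55512493, minus strand): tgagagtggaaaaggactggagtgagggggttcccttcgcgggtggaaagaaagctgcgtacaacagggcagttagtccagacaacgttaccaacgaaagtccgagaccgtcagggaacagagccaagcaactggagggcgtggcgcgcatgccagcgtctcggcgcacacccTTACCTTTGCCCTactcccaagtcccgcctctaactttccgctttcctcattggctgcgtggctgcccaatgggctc
Echs1 (chr7:140116422-140116671, minus strand): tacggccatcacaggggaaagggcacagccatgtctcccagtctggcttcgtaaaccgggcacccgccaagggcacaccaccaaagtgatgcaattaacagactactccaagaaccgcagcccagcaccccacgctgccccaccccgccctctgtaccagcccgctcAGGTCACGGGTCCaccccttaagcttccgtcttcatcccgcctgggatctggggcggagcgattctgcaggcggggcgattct
Acot2 (chr12:83987611-83987860, plus strand): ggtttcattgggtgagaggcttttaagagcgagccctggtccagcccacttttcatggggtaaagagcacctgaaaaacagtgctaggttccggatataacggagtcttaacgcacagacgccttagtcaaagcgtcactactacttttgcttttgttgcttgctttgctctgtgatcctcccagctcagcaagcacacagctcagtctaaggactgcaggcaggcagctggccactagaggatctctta
Hadhb (chr5:30155003-30155252, plus strand): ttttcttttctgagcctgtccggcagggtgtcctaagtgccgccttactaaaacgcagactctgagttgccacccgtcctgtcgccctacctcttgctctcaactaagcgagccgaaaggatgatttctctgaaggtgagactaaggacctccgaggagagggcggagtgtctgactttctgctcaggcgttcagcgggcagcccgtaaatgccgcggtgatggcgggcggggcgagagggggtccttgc
Hadha and Hadhb, the subunits of the trifunctional protein, are transcribed away from each other, with 272 bases between their starts. Their windows overlap over 228 bases, so the Hadhb sequence is for most of its length also the Hadha promoter.

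Before the results, 2 arrays have to be named. Deficient replicate 3 and control replicate 1, though labelled colon, carried small intestine genes at high levels. Fabp6, an ileal bile acid binding protein, stood at 14.49 in deficient replicate 3 and 15.32 in control replicate 1, and at 5.72 to 7.81 on the other 4 arrays (log2 units, as in all values here). Car1, a colonocyte enzyme, was at 7.02 in deficient replicate 3 and 2.83 in control replicate 1, and at 13.60 to 15.32 on the others. Epcam, a marker of all bowel epithelium, was even, at 14.39 to 14.42 in deficient and 14.33 to 14.68 in control samples. Each group held 1 such array. Differences within each bowel profile are also given for the members, Pparg and the general epithelial markers. Those of other lists and genes are over all 6 arrays unless said otherwise. Pparg itself read 8.77, 8.23 and 4.15 in deficient samples and 5.28, 9.91 and 9.54 in control samples, so it followed the bowel profile. Lyz2, the locus that carries Cre, read 6.80, 6.24 and 10.39 in deficient samples against 12.32, 11.79 and 12.19 in control samples. Control replicate 2 was the lone array with signal for Xist, a transcript of female cells, at 12.11, with each other array at the lowest value of the table. The number of arrays limits the precision.

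Across the 29 measured genes, signals were lower in deficient bowel for 27, with a median log2 difference of -0.39, while the median over all 10491 genes tested was 0.06. Among all genes, 42.9% had a difference below 0. No member passed limma at a Benjamini-Hochberg adjusted p under 0.05, and 0% of all genes did. The smallest adjusted p of a member was 0.659. At an unadjusted limma p under 0.05, 5 members were lower and 0 higher, where 2.36% of all genes were lower and 5.1% higher by that rule. For 7 members every deficient sample lay below every control sample, a pattern seen in 4.15% of all genes, and for 0 members did every deficient sample lie above, against 9.35%. In whole tissue, fewer cells of a type and less RNA per cell cannot be told apart. All 29 genes were above log2 4 on all 6 arrays, so none was kept through 1 group alone. The 2 remaining genes, Acsl1 and Ucp2, had no probe set of their own in the annotation and were not analysed here.

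**Figure D1:**
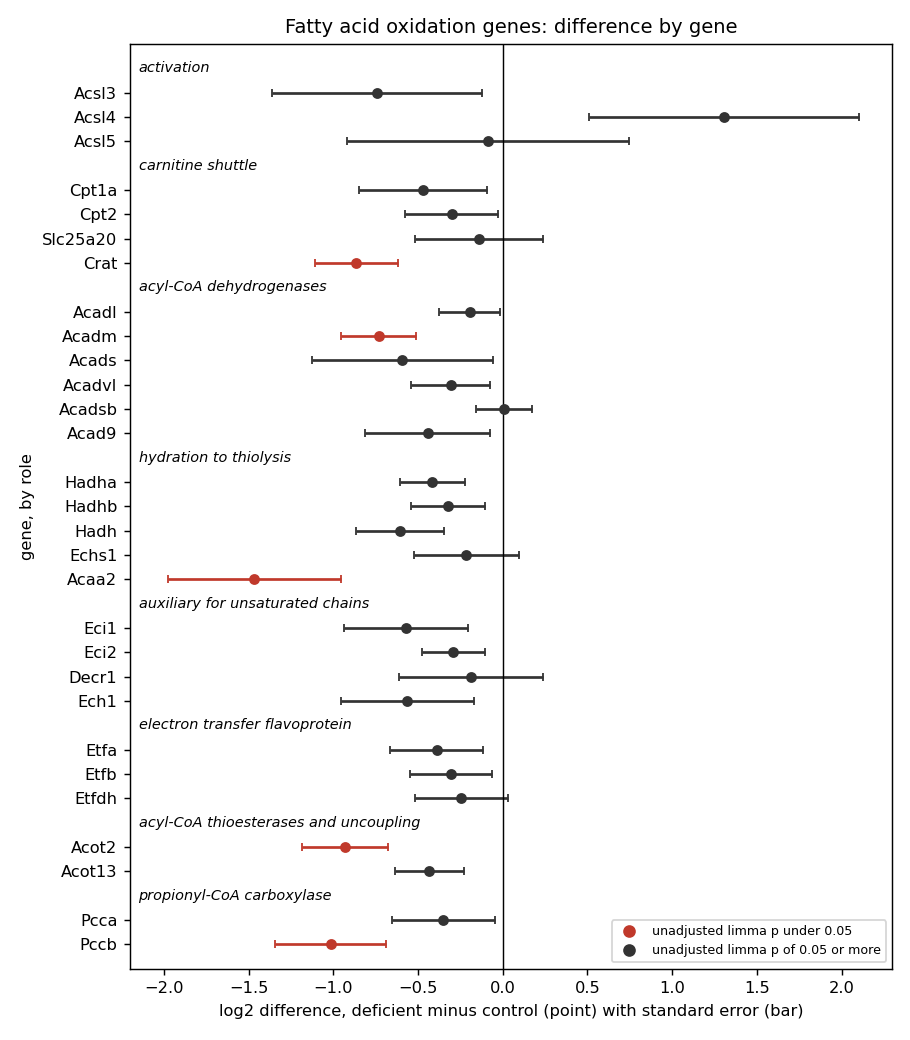
Log2 difference of deficient minus control for the 29 measured genes (x axis), with the limma standard error as a bar, ordered by role down the page. Of the 29 points, 27 lie left of 0, from -1.47 for Acaa2 to -0.09 for Acsl5, and red points are the 5 genes with an unadjusted p under 0.05.

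Activation of the fatty acid was mixed, with 2 genes lower and 1 higher. Acsl4, the synthetase that prefers arachidonic acid, read 9.29, 10.43 and 7.48 in deficient samples against 6.98, 7.93 and 8.37 in control samples. The groups overlapped, since deficient replicate 3 lay below control replicates 2 and 3. Its difference was 1.31 ± 0.80 (standard error, n = 3 each), with a limma adjusted p of 0.733. Acsl3, a synthetase of the endoplasmic reticulum and lipid droplets, read 8.14, 8.08 and 6.90 in deficient samples against 7.25, 9.23 and 8.88 in control samples. The difference was -0.74 ± 0.62 (limma adjusted p 0.790). Acsl5, a synthetase abundant in intestinal epithelium, went with the bowel profile, at 11.90 in deficient replicate 3 and 13.10 in control replicate 1, against 10.30 to 10.83 on the other arrays. Its difference of -0.09 turned to 0.47 on the 4 arrays without small intestine genes and was -1.20 between the 2 arrays with them.

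The carnitine shuttle was lower for all 4 of its members, with a median difference of -0.39. Crat, the carnitine acetyltransferase that exports acetyl units, read 6.75, 6.41 and 7.12 in deficient samples against 7.90, 7.46 and 7.52 in control samples. No deficient sample reached the lowest control. The difference was -0.87 ± 0.25, with an unadjusted limma p of 0.0129 and an adjusted p of 0.659. Cpt1a, the rate-limiting transferase of the outer membrane, read 10.40, 9.95 and 9.76 in deficient samples against 9.78, 11.07 and 10.67 in control samples. The lowest control was the array with small intestine genes. Over all 6 arrays it differed by -0.47 ± 0.38. Its 3 kept probe sets gave -0.47, -0.64 and -0.29. Cpt2, which reforms acyl-CoA inside the mitochondrion, differed by -0.30 ± 0.27. Slc25a20, the carnitine-acylcarnitine translocase, was at 11.48, 10.54 and 11.54 in deficient samples and 10.84, 11.35 and 11.79 in control samples, a difference of -0.14 ± 0.38. Without deficient replicate 2 its sign turned, to 0.19.

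Of the 6 acyl-CoA dehydrogenases, which open each round of the cycle, 5 were lower. Acadm, the medium-chain enzyme, stood out. It read 10.45, 10.09 and 10.78 in deficient samples against 11.11, 11.33 and 11.08 in control samples, with no overlap. Its difference was -0.73 ± 0.22 (unadjusted limma p 0.0174, adjusted p 0.659). The short-chain enzyme Acads, which handles butyryl-CoA, was at 9.43, 8.35 and 8.13 in deficient samples against 8.29, 9.57 and 9.83 in control samples. Its lowest control was the array with small intestine genes, and the difference was -0.59 ± 0.53. Smaller differences were found for Acadvl, the very-long-chain enzyme, at -0.31 ± 0.23, and Acadl, the long-chain enzyme, at -0.20 ± 0.18. Acad9, which also serves complex I assembly, differed by -0.44 on 1 probe set and by 0.12 on the other, so its direction is uncertain. Acadsb, of branched-chain amino acid breakdown, was even, at 6.94, 6.74 and 6.68 in deficient samples against 6.63, 6.80 and 6.90 in control samples (0.01 ± 0.16).

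**Figure D2:**
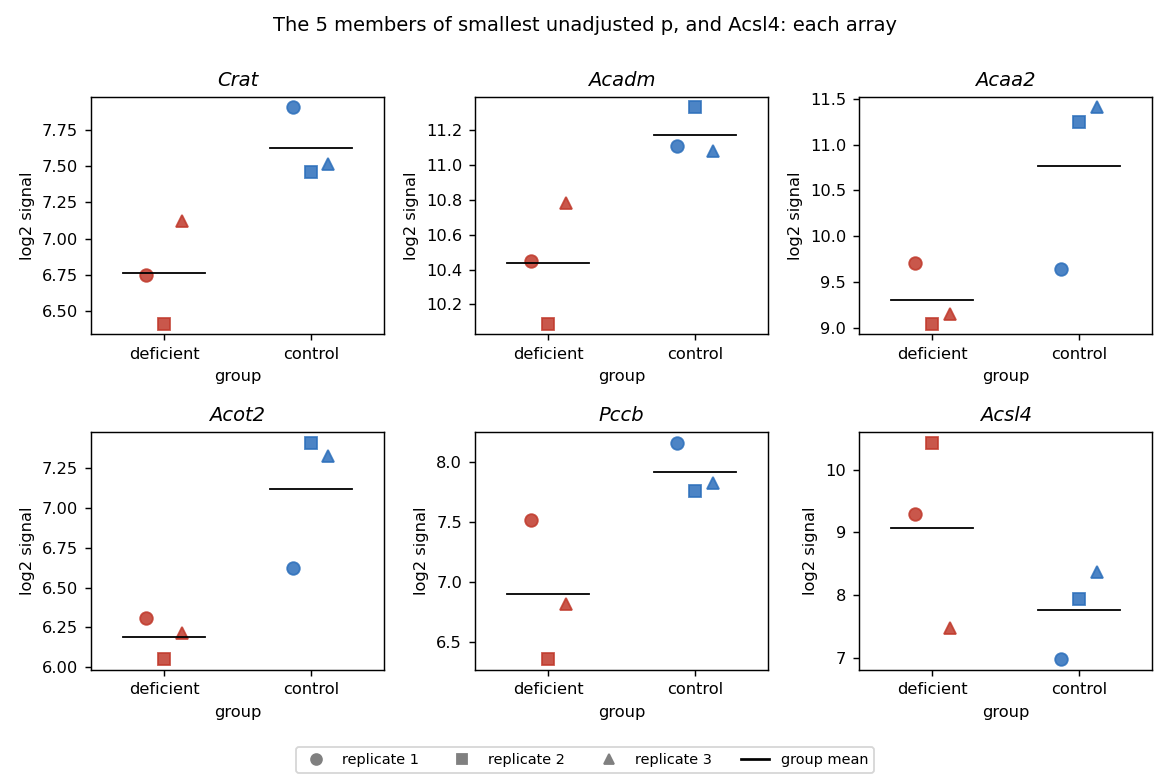
Log2 signal (y axis) on each array for Crat, Acadm, Acaa2, Acot2, Pccb and Acsl4, with deficient samples left of control samples, a symbol for each replicate and a line at the group mean. Groups are apart for Crat, Acadm, Acot2 and Pccb, while for Acaa2 control replicate 1 and for Acsl4 deficient replicate 3 lie within the range of the other group.

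The remaining steps of the cycle were lower for 5 of 5 genes, with a median of -0.42. Acaa2, the thiolase that releases acetyl-CoA, had the widest difference of the 29 genes. It read 9.70, 9.05 and 9.15 in deficient samples and 9.65, 11.25 and 11.40 in control samples. The lone overlap came from control replicate 1, with small intestine genes, which lay just below deficient replicate 1. The difference was -1.47 ± 0.51, with an unadjusted limma p of 0.0296 and an adjusted p of 0.667. All 3 probe sets of Acaa2 pointed the same way, at -1.47, -1.79 and -1.81. Without control replicate 1 the difference was -2.03. Hadh, the dehydrogenase for medium and short chains, read 13.66, 13.02 and 13.93 in deficient samples against 14.18, 14.13 and 14.12 in control samples. The groups were apart, at -0.61 ± 0.26 (limma adjusted p 0.679), and its other 2 probe sets gave -0.98 and -0.93. Hadha and Hadhb, the long-chain subunits that share the promoter printed above, differed by -0.42 ± 0.19 and -0.32 ± 0.22. Hadha was at 9.98, 9.65 and 9.63 in deficient samples against 9.94, 10.34 and 10.23 in control samples, so it overlapped through control replicate 1. Hadhb overlapped through the same array. Echs1, the short-chain hydratase, differed by -0.21 ± 0.31 and turned to 0.11 without deficient replicate 2.

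Unsaturated chains need auxiliary isomerases and reductases, and all 4 measured were lower, with a median of -0.43. Eci1, an enoyl-CoA isomerase, read 9.27, 8.13 and 9.44 in deficient samples against 9.61, 9.45 and 9.49 in control samples. All 3 deficient values lay below the controls, 2 of them narrowly, and the difference of -0.57 ± 0.37 (limma adjusted p 0.742) leaned on deficient replicate 2. Eci2, a related isomerase also found in peroxisomes, had 9.12, 9.04 and 9.53 in deficient samples against 9.48, 9.54 and 9.54 in control samples (-0.29 ± 0.18). Ech1, a dienoyl-CoA isomerase, was at 10.79, 9.87 and 10.42 in deficient samples and 10.23, 11.09 and 11.45 in control samples (-0.56 ± 0.39). Decr1, the dienoyl-CoA reductase, differed by -0.19 ± 0.43 and by 0.26 without deficient replicate 2. Of the electron transfer flavoprotein, Etfa read 11.10, 10.38 and 11.18 in deficient samples and 10.99, 11.40 and 11.45 in control samples. Etfa and Etfb, its subunits, differed by -0.39 ± 0.28 and -0.31 ± 0.24. Etfdh, the dehydrogenase that passes the electrons to ubiquinone, was at -0.24 ± 0.28. None of the auxiliary or flavoprotein genes had an unadjusted limma p under 0.05.

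The thioesterases, which cleave acyl-CoA back to free acid, were lower for both measured genes. Acot2, the mitochondrial long-chain enzyme, had the smallest p of the 29. It read 6.31, 6.05 and 6.21 in deficient samples against 6.62, 7.41 and 7.33 in control samples, without overlap. Its difference was -0.93 ± 0.25 (unadjusted limma p 0.0113, adjusted p 0.659). A probe set that names both Acot2 and its paralog Acot1, and was left out of the comparison, differed by -0.63 with overlap. On it control replicate 1, at 5.45, lay below the deficient samples, at 6.04, 5.63 and 5.52. Acot13, a smaller thioesterase tied to mitochondria, stood at 8.27, 7.99 and 8.56 in deficient samples against 8.87, 8.64 and 8.60 in control samples (-0.43 ± 0.20), also without overlap. Propionyl-CoA from odd chains and amino acids enters the citrate cycle through a carboxylase of 2 subunits. Pccb, the beta subunit, read 7.51, 6.36 and 6.81 in deficient samples against 8.16, 7.75 and 7.82 in control samples. It differed by -1.02 ± 0.33 (unadjusted limma p 0.0213, adjusted p 0.659). Pcca, the alpha subunit, was at 7.82, 7.34 and 7.05 in deficient samples against 7.38, 8.20 and 7.68 in control samples, and differed by -0.35 ± 0.30 with overlap.

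Deficient replicate 2 had the lowest signal of all 6 arrays for 20 of the 29 genes, whereas it was lowest for 18.3% of all genes. The same array was lowest for 11 of 19 citrate cycle genes and 9 of 16 regulators described below, so this is not particular to the members. Relative to each gene's mean, the median member stood at 0.02, -0.59 and -0.07 in the 3 deficient samples, against -0.02, 0.28 and 0.28 in the 3 control samples. Deficient replicate 1 thus lay slightly above control replicate 1, and the list medians of the groups overlapped. Without deficient replicate 2, 22 of the 29 genes were lower, against 44.7% of all genes, and the median was -0.28 beside 0.04 for all genes. By that fit 3 genes (Acadm, Acot2 and Crat) were lower at an unadjusted limma p under 0.05, against 1.42% of all genes. Crat and Acot2 kept an unadjusted p under 0.05 in all 20 fits made, and Acadm did so in all but the fit without control replicate 2 and the one with a replicate block. Pccb did not without deficient replicate 2, deficient replicate 3, control replicate 1 or both arrays with small intestine genes, or with array weights, where its difference was -0.44. Acaa2 did not without deficient replicate 2 or 3 or control replicate 2 or 3, with a replicate block or with no filter on low values.

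Within the bowel profiles the differences were of unequal size. On the 4 arrays without small intestine genes, 27 of 29 genes were lower, with a median of -0.49, where 41.6% of all genes had a difference below 0. In 18 genes both deficient samples lay below both control samples, against 18.4% of all genes, and in 2 genes, Acsl4 and Acsl5, both lay above, against 30.5%. An unadjusted limma p under 0.05 went with 6 lower genes there (Acaa2, Acot2, Acsl3, Crat, Acadm and Hadh), against 4.93% of all genes, and with 1 higher gene, Acsl4, against 9% of all genes. Between the 2 arrays with small intestine genes, 18 of 29 genes were lower, against 47.9% of all genes, and the median was -0.16. That pair has no replicate, and whether the difference itself depends on the bowel profile was not tested. Crat differed by -0.91 on the 4 arrays and -0.78 between the pair, and Pccb by -0.85 and -1.34. Acaa2, by contrast, had -1.95 and -0.49, and Slc25a20 had -0.56 and 0.71. With bowel profile as a block in limma, 8 genes were lower and 1 was higher at an unadjusted p under 0.05, against 5.34% and 8.11% of all genes. The smallest adjusted p of a member was then 0.273, and 0% of all genes passed.

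**Figure D3:**
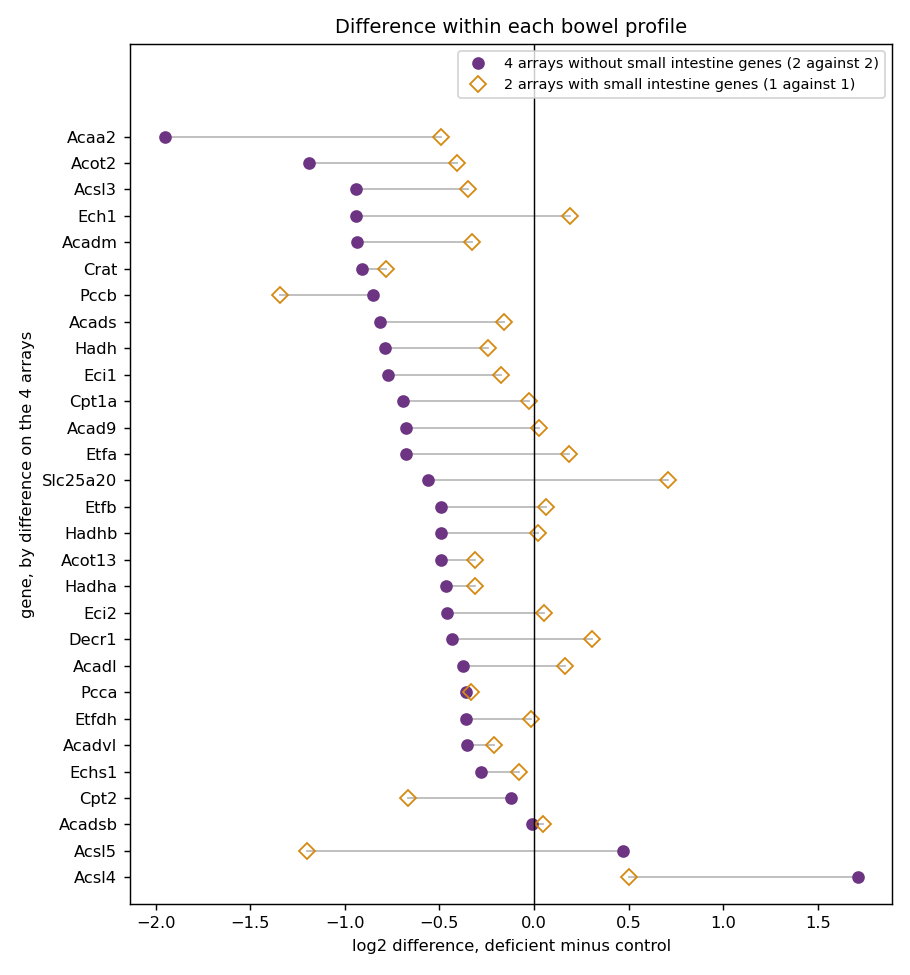
Log2 difference of deficient minus control (x axis) for each of the 29 genes, within the 4 arrays without small intestine genes (filled circles, 2 against 2) and between the 2 arrays with them (open diamonds, 1 against 1). Circles lie left of 0 for 27 genes and diamonds for 18, and a grey line joins the values of a gene.

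Other genes of fatty acid supply and oxidation were mixed. Of 44 listed, 34 were measured, and 1 of these, Acad10, passed the filter through control samples alone. Of the other 33 genes, 23 were lower and 10 higher, against 42.9% of all genes lower, with a median of -0.26 beside 0.06 for all genes tested. At an unadjusted limma p under 0.05, 5 were lower and 1 higher, against 2.36% and 5.1% of all genes. No gene of the list passed an adjusted p under 0.05. Pnpla2, the lipase that opens fat stores, read 8.40, 8.17 and 8.46 in deficient samples against 8.94, 8.88 and 8.87 in control samples, apart by -0.55 ± 0.15. Cd36, a fatty acid transporter and PPAR target, was at 7.76, 7.37 and 7.98 in deficient samples against 8.24, 9.60 and 8.37 in control samples (-1.03 ± 0.41). Fabp4, the fatty acid binding protein of adipocytes and macrophages, had 11.86, 12.30 and 12.05 in deficient samples against 12.58, 13.55 and 12.99 in control samples (-0.97 ± 0.29). Mlycd, which removes the malonyl-CoA that inhibits Cpt1a, differed by -0.66 ± 0.25. For these 4 of the 33 genes every deficient sample lay below every control sample, against 4.15% of all genes. Fabp1, the liver-type binding protein of enterocytes, differed by -1.96 ± 0.73, with overlap between the groups. Acad10, of the dehydrogenase family, read 3.78, 3.28 and 3.76 in deficient samples against 4.19, 4.82 and 5.06 in control samples. Acbd3, a Golgi protein with an acyl-CoA binding domain, was higher by 0.46 ± 0.18, with every deficient sample above every control sample, against 9.35% of all genes.

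Of 16 measured regulators (18 listed), 12 were lower, against 42.9% of all genes, and the median was -0.24 beside 0.06 for all genes. The groups were apart with deficient samples lower for Ppara and Ppargc1a (4.15% of all genes) and higher for Tfam (9.35%). Ppara and Ppargc1a were also the 2 with an unadjusted limma p under 0.05, against 2.36% of all genes lower by that rule. Ppargc1a, which encodes PGC-1 alpha, read 6.54, 5.23 and 5.86 in deficient samples against 6.98, 8.18 and 8.21 in control samples. The groups did not overlap, with a difference of -1.92 ± 0.48 (unadjusted limma p 0.00746, adjusted p 0.659). Ppara was at 6.82, 4.82 and 6.70 in deficient samples against 7.97, 8.27 and 7.999 in control samples, also apart, at -1.96 ± 0.56 (unadjusted limma p 0.0131, adjusted p 0.659). Without deficient replicate 2 the Ppara difference was -1.32. Pparg differed by -1.19 ± 1.73 over all arrays, by -1.22 on the 4 arrays without small intestine genes and by -1.13 between the other 2. It turned to 0.26 without deficient replicate 3 and was -2.67 without control replicate 1. With bowel profile as a block in limma the Pparg difference was -1.19 ± 0.21, with an unadjusted p of 0.00198 and an adjusted p of 0.273. By that block 4 regulators were lower at an unadjusted p under 0.05, Ppara, Ppargc1a, Pparg and Sirt3, against 5.34% of all genes. Tfam, a mitochondrial transcription factor, read 9.34, 9.36 and 9.72 in deficient samples against 9.24, 9.11 and 9.15 in control samples (0.31 ± 0.17).

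**Figure D4:**
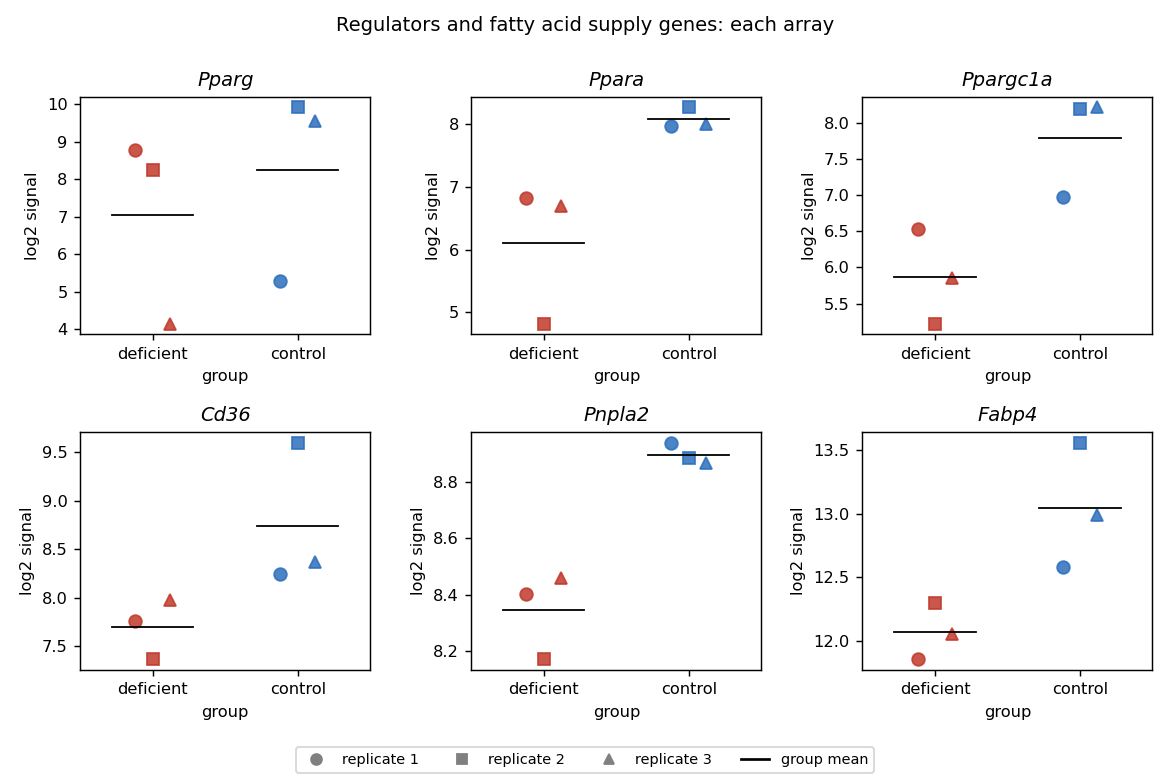
Log2 signal (y axis) on each array for Pparg, Ppara, Ppargc1a, Cd36, Pnpla2 and Fabp4, with deficient samples left of control samples, a symbol for each replicate and a line at the group mean. All but Pparg have deficient samples below every control sample, and Pparg is lowest on the 2 arrays with small intestine genes, at 4.15 in deficient replicate 3 and 5.28 in control replicate 1.

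The citrate cycle, which burns the acetyl-CoA that the pathway makes, showed smaller differences. Of 19 measured genes (20 listed) 14 were lower, against 42.9% of all genes, and the median was -0.11 beside 0.06 for all genes. At an unadjusted limma p under 0.05, 0 were lower, against 2.36% of all genes, and 0 higher, against 5.1%. The 3 of smallest p were Idh2 at -0.51 ± 0.24, Pdhb at -0.34 ± 0.20 and Sucla2 at -0.45 ± 0.34. Pdhb and Pdha1, also counted in this list, encode subunits of pyruvate dehydrogenase and are not enzymes of the cycle itself. On deficient replicate 2 the median citrate cycle gene stood at -0.27 relative to its mean, beside -0.59 for the fatty acid oxidation genes. Whether the lists differ was not tested.

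Markers of other cells differed in level between the groups for some cell types, and no marker of any list passed a limma adjusted p under 0.05. All 5 measured adipocyte markers (of 8 listed) were lower, with a median of -1.74, and the log2 of their summed signal was 8.72 to 9.98 in deficient and 10.62 to 11.99 in control samples. Such sums, here and below, add unlogged signals and so mostly follow the brightest probe sets of a list. Adipoq, the adipocyte hormone adiponectin, read 8.75, 8.16 and 9.43 in deficient samples against 10.15, 11.24 and 10.16 in control samples. Lep, the adipocyte hormone leptin, was at or near the lowest value of the table on all arrays. All 12 macrophage and monocyte markers were measured, and Itgam passed the filter through deficient samples alone. Of the other 11 markers 10 were higher, with a median of 1.20 and summed signals of 12.65 to 13.73 in deficient and 11.92 to 12.49 in control samples. Of 8 neutrophil markers 4 were measured, and Il1r2 passed through deficient samples alone. The other 3 had summed signals of 8.41 to 13.09 in deficient and 6.33 to 9.38 in control samples. S100a8, a calprotectin subunit of neutrophils, read 10.26, 12.06 and 7.03 in deficient samples against 4.31, 4.55 and 8.30 in control samples, with overlap. Cxcr2, a neutrophil chemokine receptor, was near the lowest value on all arrays. By these sums, deficient replicate 2 was highest for macrophage and neutrophil markers and lowest for adipocyte markers. The 10 general epithelial markers had a median of -0.04 and sums of 16.68 to 16.82 in deficient and 16.59 to 17.10 in control samples. Of these, 8 were lower and 2 higher, against 42.9% of all genes lower, from -0.60 for Cdx2 to 0.08 for Cdh1. On the 4 arrays without small intestine genes, 4 of the 10 were lower, against 41.6% of all genes, with a median of 0.06. Between the 2 arrays with them, 9 of the 10 were lower, against 47.9% of all genes, with a median of -0.26. Deficient replicate 2 was the lowest array for 4 of the 10 markers, against 18.3% of all genes. Smooth muscle markers (8 of 8 measured) had a median of -0.02 and sums of 14.95 to 15.63 in deficient and 14.47 to 15.80 in control samples. The part of any of these cells in the values of the fatty acid oxidation genes was not tested.

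**Figure D5:**
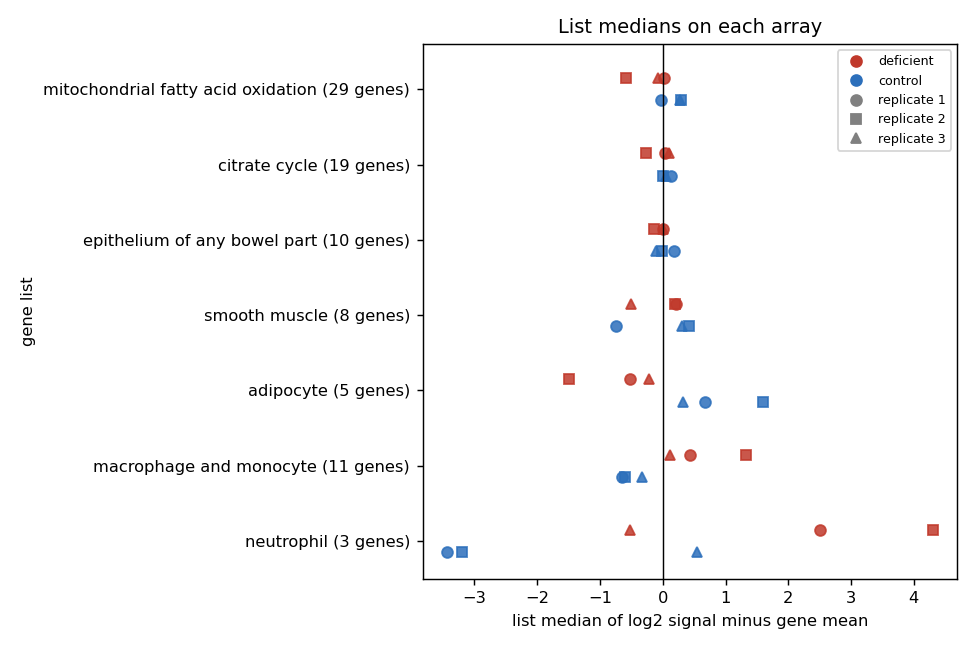
Median over each gene list of the log2 signal minus the gene's mean over the 6 arrays (x axis), without genes that passed the filter through 1 group alone, 1 symbol per array, deficient samples in red above control samples in blue. On deficient replicate 2 (red square) the fatty acid oxidation list stands at -0.59, the adipocyte list at -1.49 and the neutrophil list at 4.31, while the epithelial list stays at -0.14.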

How the data were processed

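Colonic RNA of 6 mice was hybridised to Affymetrix mouse arrays, per the labels. The authors summarised the probes of each probe set with GCRMA and deposited the log2 values, per the submitters' processing notes. The settings of GCRMA were not given in the sources used here. That the scale is log2 follows from the range of the values, 2.25 to 16.2. Levels of different probe sets are not comparable.

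Of 45101 probe sets, 34958 named 1 gene in the platform annotation, 932 several and 9211 none listed, and the last 2 kinds were left out. Probe sets above log2 4 on at least 3 arrays were kept (17031), and a gene took its kept probe set of highest mean, giving 10491 genes. A limma model (version 3.58.1, R 4.3.3) with eBayes and no covariate gave the two-sided test of deficient minus control, with Benjamini-Hochberg adjustment over all 10491 genes. Standard errors are limma's moderated ones. The procedure was tested on simulated data.

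The members and lists were chosen with earlier results of these data known. All members are named. Of the other lists, genes with an unadjusted p under 0.05 were named, or the 3 of smallest p, with Pparg, Ppara and Lyz2 in any case. The promoters shown, Tfam, Sirt3 and single markers of bowel parts, cell types and sex, were chosen after values and matches were seen. Measured markers of small intestine enterocytes (7 of 12), colon epithelium (7 of 10) and lymphocytes (2 of 8) had median differences of -0.59, 0.82 and -1.52. Same-numbered samples had correlations of deviations of -0.54, 0.36 and -0.61, and deficient replicate 3 with control replicate 1 had 0.69. Those 2 arrays carried small intestine genes. The correlations go with the bowel profile, so they cannot show whether the numbers pair the mice. Alternatives were other filters, normalizations, probe set choices and variance models, array weights, blocks and leaving out arrays.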

Additional observations from a re-analysis of the deposited data

How the results depend on the processing

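No member and no gene of the wider pathway or the regulators passed an adjusted p under 0.05 in limma under any alternative, and none was under 0.1 in the fit reported. With array weights, the limma adjusted p was under 0.1 for Acot2 (0.081), Crat (0.094) and Acadm (0.09997), and for 293 of all 10491 genes. At an unadjusted p under 0.05, 5 members were lower in the fit reported (2.36% of all genes), 3 with a replicate block (1.5%) and 8 with bowel profile as a block (5.34%), and 3 to 10 when 1 array was left out. The 3 came without deficient replicate 2 (1.42%) and without control replicate 2 (1.6%), and the 10 without control replicate 1 (4.38%), so the share over all genes moved the same way. The count of members lower ran from 22 to 27 and the median from -0.53 to -0.28 with 1 array left out. Quantile normalization gave a median of -0.46 and array weights -0.30. The median moved by less than the spread between replicates (0.263) in each alternative, a wide bound beside a median of -0.39. Other filters, the variance model, a floor at log2 4 and both blocks left the members' differences unchanged. The median was bound to stay at -0.39 in those settings. Of 39 genes followed singly, 32 kept their direction under each alternative run. The filters, variance model, floor and blocks could not turn a member's direction. Nor could the fit of every kept probe set, which was read at the main one. Acad9 is among the 32, though its other kept probe set gave 0.12, and so is Acad10, kept through control samples alone. Pccb differed by -0.44 with array weights. Acsl5 turned to 0.18 with array weights and to 0.47 without both arrays with small intestine genes, and lay between -0.56 and 0.84 with 1 array left out. Acadsb turned to -0.058 with quantile normalization and to -0.013 without both arrays with small intestine genes, and lay between -0.070 and 0.068 with 1 array left out. Echs1 turned to 0.11 with array weights. With 1 array left out, Echs1 lay between -0.40 and 0.11, Slc25a20 between -0.38 and 0.19, Decr1 between -0.53 and 0.26 and Etfdh between -0.42 and 0.0053, each with its highest value without deficient replicate 2. Pparg lay between -2.67 without control replicate 1 and 0.26 without deficient replicate 3. The cause of these turns was not tested. Whether the replicate numbers pair the mice could not be told from the values. Acadsb and Eci2 had no probe set free of a cross-hybridisation suffix. Acad10 had deficient samples under log2 4, at 3.78, 3.28 and 3.76, and Fabp1 had deficient replicate 2 there, at 3.44.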
